A study of Mus musculus with 9 samples.

Results

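Brg1sh_4935 is a short hairpin RNA against Brg1, and the comparison described here set the 2 arrays of this hairpin against the 3 arrays of the control hairpin Rluc. The arrays were taken by their titles, which makes 5 of the 9 arrays of the series. RNA came from RN2, a murine acute myeloid leukaemia line driven by MLL-AF9 together with NrasG12D, an activated form of Nras. Both groups carried an inducible vector with their hairpin, and both received 1 ug/ml doxycycline for 96 h, so induction and drug are shared. The Rluc hairpin targets Renilla luciferase, a gene that mouse cells do not have. The labels call the cell line of the control arrays MLL-AF9/NrasG12D TtTMPV, and the name given to the knockdown arrays lacks the last term. That difference in name runs with the comparison and cannot be told apart from it. The series was made to map the genes downstream of Brg1 in this leukaemia, and its other 4 arrays carry the Brg1 hairpins Brg1sh_3232 and Brg1sh_3364, with 2 arrays each.

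Brg1, encoded by Smarca4, is an ATPase of the SWI/SNF complex, which slides and evicts nucleosomes and so opens promoters and enhancers to transcription factors. A given complex holds either Brg1 or its relative Brm, encoded by Smarca2, together with shared core subunits and with subunits that mark the type of complex. In MLL-AF9 leukaemia the complex is known for holding open distal enhancers of Myc and for keeping cells in an immature, dividing state.

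Expression values are log2 signals per probe set, on which a difference of 1 is a doubling. Array medians lay between 7.39 and 7.49, and no value was missing. The Brg1sh_4935 arrays correlated at 0.9971 over all probe sets, and 14 of 19937 genes differed between them by more than 0.5. Between pairs of control arrays that number was 55, 95 and 177. No other measure of depth exists for such arrays, and their number limits the precision. The myeloid genes Itgam, an integrin chain of myeloid cells, and Mpo, the enzyme of the primary granule, stood at 12.90 to 12.96 and 13.72 to 13.90 in the controls, well above the array medians.

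The targeted gene stood apart in every array. Smarca4 (probe set 10583697, Entrez 20586) read 11.79, 11.77 and 11.79 in the controls and 10.70 and 10.76 with Brg1sh_4935. The groups did not overlap, and the gap was far wider than the spread within either group. The group levels were 11.79 ± 0.01 (SD, n = 3) for Rluc and 10.73 ± 0.04 (SD, n = 2) for the hairpin. Smarca4 thus fell by 1.05 (SE 0.06) with a limma adjusted p of 1.09e-05. On the linear scale 48.2% of the control signal remained, with a 95% confidence interval of 43.5% to 53.3%. The other hairpins left the transcript at a like level: the difference of Brg1sh_4935 from their mean was -0.06, with a 95% interval of -0.20 to 0.08 and an adjusted p of 0.732.

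Of 31 SWI/SNF genes measured, 5 rose and 2 fell, to be read beside the 22.1% of all genes that were called, and their median change was 0.00, as it was over all genes. Bcl7b, a small accessory subunit, rose by 0.28 (adjusted p = 0.0022), and Arid1b, the DNA-binding subunit of the canonical complex, rose by 0.24 (adjusted p = 0.0227). Bcl7c, a relative of Bcl7b, was the other gene that fell, by 0.15 (adjusted p = 0.0283). With each array centred on its median, 1 subunit rose in place of 5 and 5 fell in place of 2, so which of these small changes passed depends on the scaling. Smarca2, the alternative ATPase, read 10.83, 10.80 and 10.63 in the controls and 10.74 and 10.76 with the hairpin. Its difference was 0.00 with a 95% interval of -0.14 to 0.14, so no change was detectable within that range.

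**Figure D1:**
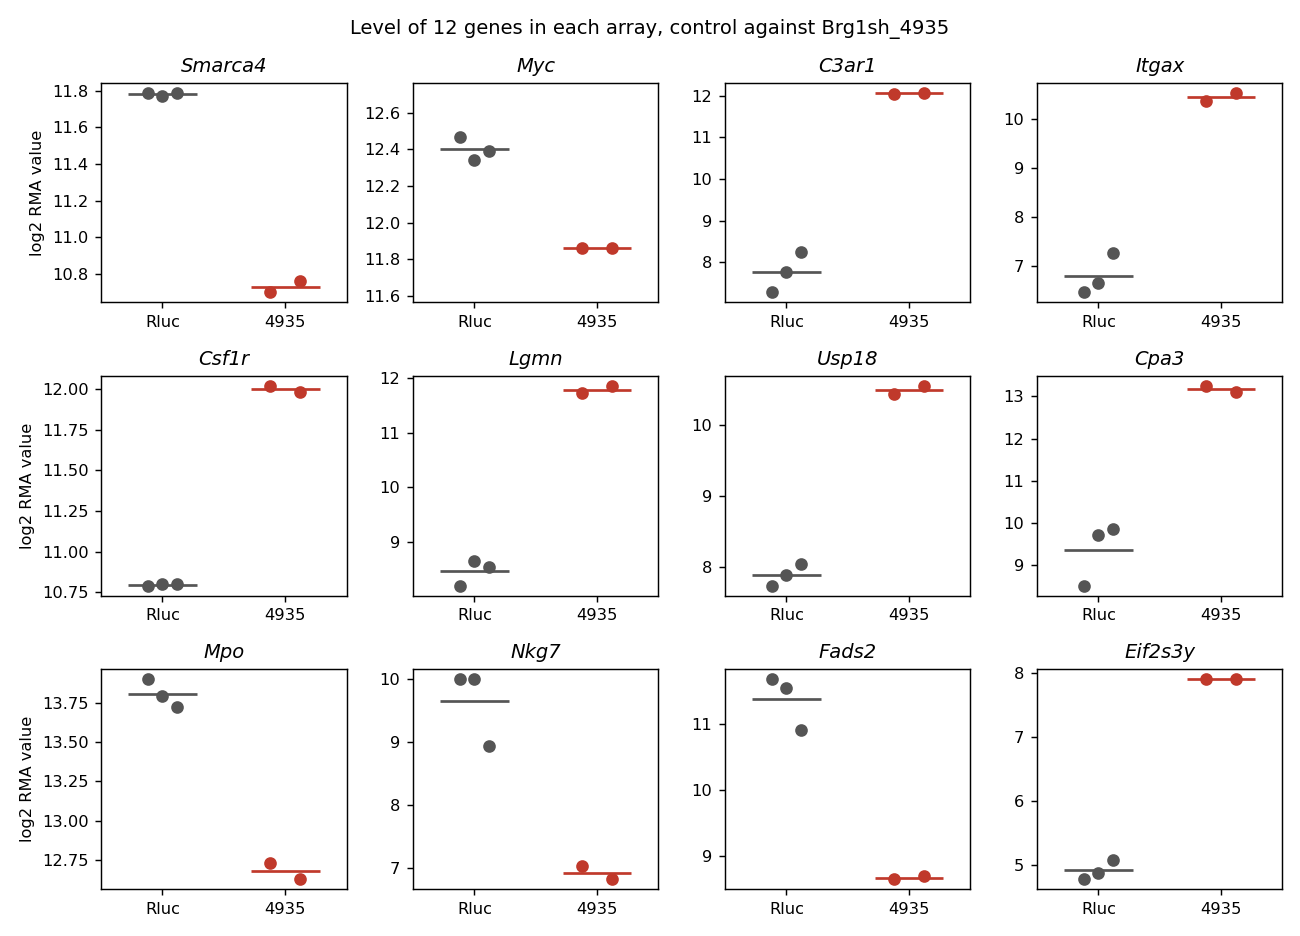
Log2 level (y axis) of 12 genes in each of the 3 Rluc arrays (grey points) and the 2 Brg1sh_4935 arrays (red points); horizontal lines are group means and each panel has its own scale. In all 12 panels the points of the groups do not overlap, as in every called gene, and the controls spread most in Cpa3 and Nkg7.

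Across the array, 4402 of 19937 genes, or 22.1%, passed an adjusted p below 0.05 in limma's moderated test. Of these, 1952 rose (9.79% of the genes tested) and 2450 fell (12.3%). Falls were more numerous, but fewer of them were large: 194 genes rose and 70 fell at least 2-fold, and 41 rose and 10 fell at least 4-fold. The median size among called genes was 0.36. Rises made up 44.3% of the calls, and 31.6% when each array was centred on its median. In each of the 4402 called genes both Brg1sh_4935 arrays lay beyond all 3 controls on the side of the change. The same held for 42.8% of all genes, called or not, so this lack of overlap is common in these arrays. Leaving out Brg1sh_4935 replicate 1 left 2673 calls and leaving out replicate 2 left 2707. A test against a fold of 1.2 left 1053, of which 60.5% were rises.

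**Figure D2:**
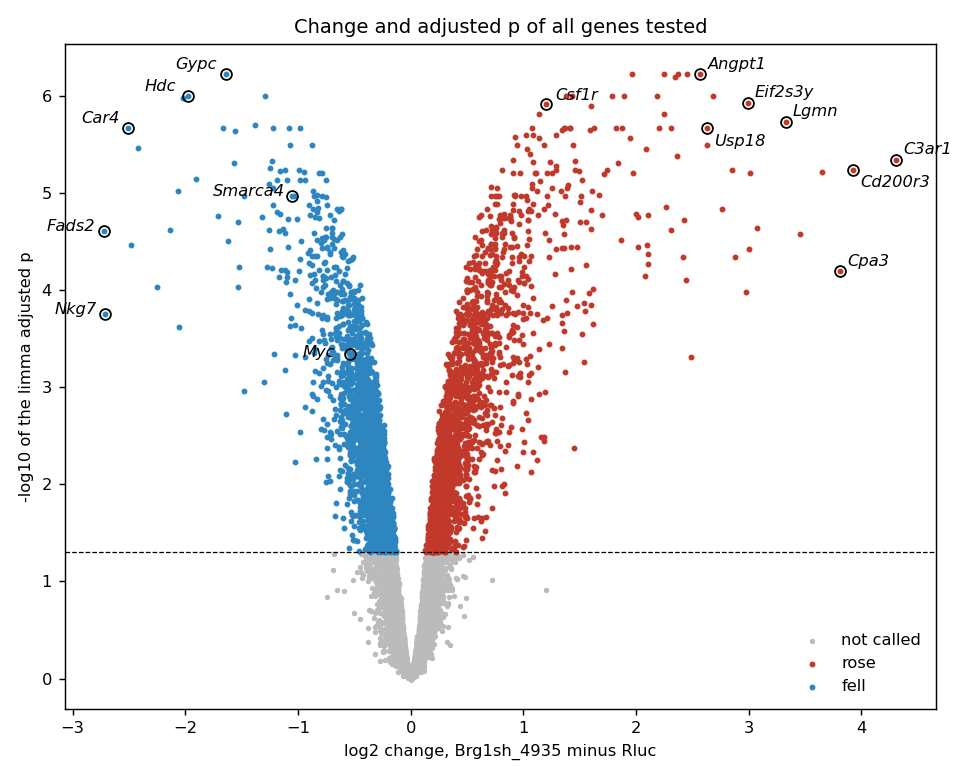
Each point is 1 of 19937 genes, with its log2 change between Brg1sh_4935 and Rluc on the x axis and -log10 of the limma adjusted p on the y axis; red points rose, blue points fell, grey points did not pass 0.05 (dashed line). The changes run from -2.72 to 4.31.

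Many of the largest rises were of cell surface receptors, several of them known from myeloid or mast cells. C3ar1 (probe set 10547657, Entrez 12267), the receptor for complement fragment C3a, read 7.27, 7.77 and 8.23 in the controls and 12.04 and 12.08 with Brg1sh_4935. It rose by 4.31 (SE 0.22, adjusted p = 4.56e-06), a 19.8-fold increase. The controls were spread over about a log2 unit, and the knockdown arrays stood well above the highest of them.

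Cd200r3, a receptor of the CD200 family known from mast cells and basophils, read 4.98, 5.62 and 5.89 in the controls and 9.42 and 9.43 with the hairpin, a difference of 3.93. Detection above background was not analysed here, so for genes read this low in the controls the differences are those of the deposited values and may understate the change. Cpa3 (probe set 10497451, Entrez 12873), the carboxypeptidase of mast cell granules, read 8.52, 9.73 and 9.87 against 13.25 and 13.11. Its rise of 3.81 (SE 0.33, adjusted p = 6.37e-05) had the widest error of these genes because control replicate 1 lay more than a log2 unit below the other controls. Itgax, the integrin chain CD11c of dendritic cells and macrophages, rose from 6.46, 6.66 and 7.27 to 10.36 and 10.54, or 12.6-fold. F2rl2, a receptor of the thrombin receptor family, rose by 3.46, and Havcr2, an inhibitory immune receptor, rose 8.42-fold. Cd200r4, a further receptor of the CD200 family, rose 8.08-fold. Mc5r, a melanocortin receptor, rose 7.37-fold, and Colec12, a scavenger receptor, 6.78-fold.

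The other large rises were of intracellular or lysosomal proteins. Lgmn, the lysosomal protease legumain, read 8.19, 8.65 and 8.54 in the controls and 11.72 and 11.86 with the hairpin, a rise of 3.33 (SE 0.14, adjusted p = 1.86e-06). Gem, a small GTPase, rose 7.98-fold. Dab2, an endocytic adaptor, rose 7.90-fold in the probe set used, while its dimmer probe set changed by -0.04. Ifi207, of the interferon-inducible p200 family, rose 7.23-fold, and Padi2, an enzyme that converts arginine to citrulline, 6.39-fold. Padi2 had tight groups, at 8.12, 8.29 and 8.24 against 10.92 and 10.87.

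The genes with the largest falls included enzymes and membrane proteins. Fads2 (probe set 10465895, Entrez 56473), a desaturase that makes polyunsaturated fatty acids, read 11.69, 11.55 and 10.92 in the controls and 8.65 and 8.69 with Brg1sh_4935. It fell by 2.72 (SE 0.20, adjusted p = 2.45e-05), so that 15.2% of the control signal remained. Nkg7, a granule membrane protein, read 9.99, 9.99 and 8.93 against 7.03 and 6.83, with control replicate 3 a log2 unit below the other controls. Car4, a membrane-bound carbonic anhydrase, read 11.67, 11.64 and 11.80 against 9.16 and 9.22 and fell by 2.51 (SE 0.11, adjusted p = 2.15e-06).

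Hao1, a peroxisomal oxidase, fell by 2.48, and Tspan2, a tetraspanin, by 2.42. Tshr, the thyrotropin receptor, fell by 2.25. Atp1b1, the beta subunit of the sodium pump, fell by 2.14. Cnn3, an actin-binding calponin, fell by 2.07. Camp, the antimicrobial peptide cathelicidin, fell by 2.06. Chpt1, which makes phosphatidylcholine, fell by 2.02 with tight groups, at 9.28, 9.35 and 9.30 against 7.35 and 7.24. Hdc, which makes histamine, read 12.27, 12.27 and 12.06 against 10.19 and 10.25. Ces1d, a carboxylesterase, Slc28a2, a nucleoside transporter, and Gramd3 fell by 1.91, 1.71 and 1.67. Gypc, the membrane glycoprotein glycophorin C, fell by 1.64 (SE 0.04) with the smallest adjusted p of the 15, 6.01e-07.

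Over these 30 genes the spread of the controls ran along the change. Control replicate 3 lay nearest to the knockdown arrays in 22 of the 30, and control replicate 1 lay farthest in 23. The part of this spread in the sizes given above was not tested beyond leaving out each control in turn, which kept all 30 calls.

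**Figure D3:**
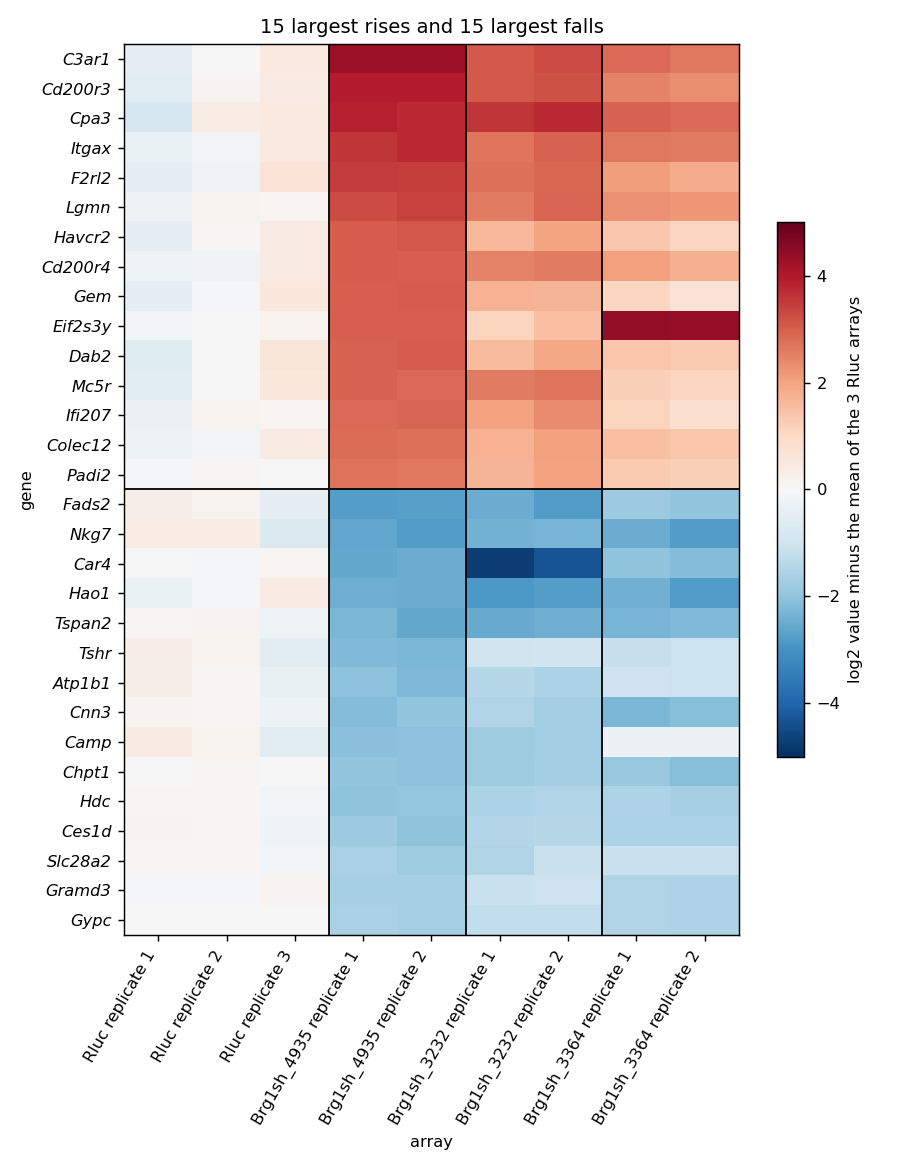
Rows are the 15 largest rises and 15 largest falls of Brg1sh_4935 against Rluc and columns are the 9 arrays; colour is the log2 value minus the mean of the 3 Rluc arrays. Both Brg1sh_4935 arrays have the same sign in each of the 30 rows, while some genes, such as Eif2s3y and Car4, are more extreme under another hairpin.

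Markers of macrophages and monocytes rose together. Of 51 measured, 31 rose and 0 fell, where 9.79% of all genes rose and 12.3% fell, and the median change was 0.44 against 0.00 over all genes. Csf1r, the receptor for the growth factor of macrophages, read 10.79, 10.80 and 10.80 in the controls and 12.02 and 11.98 with the hairpin, a rise of 1.2 (SE 0.05, adjusted p = 1.21e-06). Cx3cr1, the fractalkine receptor of monocytes, read 8.94, 9.11 and 9.06 against 11.32 and 11.26 and rose 4.75-fold. Mpeg1, a pore-forming protein of phagocytes, rose 2.20-fold, Cd14, the lipopolysaccharide co-receptor, 1.82-fold, and Itgam 1.29-fold. The groups did not overlap in any of these 5 genes, as in each of the 4402 called genes and in 42.8% of all genes.

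Not every marker took part. Cd163, Mrc1 and Marco, scavenger receptors of tissue macrophages, changed by 0.05, -0.05 and 0.09 and were not called. Irf8 and Klf4, transcription factors of the monocyte lineage, changed by 0.12 and 0.00 and were not called. These 5 were picked after their values were seen. The summed linear signal of the list was 79500 to 83400 in the controls and 118000 to 120000 with Brg1sh_4935. In bulk RNA more cells of a type and more RNA per cell cannot be told apart. The list holds Cd200r3, which is better known from mast cells and basophils.

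Lysosomal genes rose as well, with 29 of 46 higher, 2 lower and a median of 0.29. Over all genes 9.79% rose and 12.3% fell. Besides Lgmn, Ids and Idua, which degrade glycosaminoglycans, rose 3.53-fold and 1.94-fold. Ids read 7.43, 7.43 and 7.67 in the controls and 9.28 and 9.38 with the hairpin. Mitf, a transcription factor of the family that drives lysosomal genes, rose 2.20-fold in the probe set used, from 8.72, 8.87 and 8.75 to 9.92 and 9.92. Its dimmer probe set changed by -0.04. Scarb2 and Cd63, membrane proteins of the lysosome, were the members that fell, by 0.54 and 0.36.

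Transcription factors of the Mitf and Tfeb family bind the letters CACGTG. That motif was searched on both strands in the 250 bases before the start of each gene, in the RefSeq promoter table of build GRCm38.p6. It was present for 13 of 40 lysosomal genes with a promoter (32.5%), against 8.11% of array genes and 6.86% of all genes in the table. It was present for 8 of 26 lysosomal genes that rose (30.8%) and for 5 of 12 that were not called (41.7%). The stretches below show it, in capitals, for Ctsd (cathepsin D, up by 0.71), Mcoln1 (a lysosomal calcium channel, up by 0.22), Gaa (acid glucosidase, up by 0.28) and Lamp1 (a lysosomal membrane protein, not called), with 2, 2, 1 and 4 matches.
Ctsd, chr7:142387880-142388077, minus strand: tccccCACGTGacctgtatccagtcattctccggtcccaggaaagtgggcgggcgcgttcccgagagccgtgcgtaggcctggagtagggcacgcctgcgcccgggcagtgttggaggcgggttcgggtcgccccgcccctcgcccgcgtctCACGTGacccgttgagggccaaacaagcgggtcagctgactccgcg
Mcoln1, chr8:3500408-3500518, plus strand: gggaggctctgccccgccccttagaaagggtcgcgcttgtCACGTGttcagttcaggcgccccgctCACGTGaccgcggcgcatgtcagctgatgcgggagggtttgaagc
Gaa, chr11:119267783-119267868, plus strand: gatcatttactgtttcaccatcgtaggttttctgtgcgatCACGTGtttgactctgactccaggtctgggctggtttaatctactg
Lamp1, chr8:13159060-13159160, plus strand: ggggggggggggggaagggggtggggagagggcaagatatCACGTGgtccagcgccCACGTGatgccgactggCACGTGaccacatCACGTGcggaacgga

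The match nearest to the start lay 93 bases before it in Ctsd, 40 in Mcoln1, 135 in Gaa and 10 in Lamp1. All 4 stretches lie upstream of their gene. They are shown because members with and without a rise carry the same letters. A match describes the letters and is not evidence of binding.

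Primary granule genes went the other way. Of 13 genes of the primary granule and its regulators, 12 fell and 0 rose, with a median of -0.57. Over all genes 12.3% fell and 9.79% rose. Mpo (probe set 10380174) read 13.90, 13.79 and 13.72 in the controls and 12.73 and 12.63 with the hairpin, so that 45.9% of the control signal remained (95% interval 41.8% to 50.5%). Prtn3, a serine protease of the granule, fell by 0.83, Cst7, a cysteine protease inhibitor, by 1.22, and Serpinb10, a serine protease inhibitor, by 1.62. Myb, a progenitor transcription factor on the list, changed by -0.08 (adjusted p = 0.243). The summed signal of the list was 97800 to 108000 in the controls and 69600 to 70200 with Brg1sh_4935.

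Late neutrophil genes were mixed, with 11 of 29 higher, 3 lower and a median of 0.12, where 9.79% of all genes rose and 12.3% fell. Mmp8 and Mmp9, the collagenase and gelatinase of neutrophil granules, rose 4.29-fold and 1.94-fold. Mmp8 read 9.99, 9.67 and 9.27 in the controls and 11.77 and 11.71 with the hairpin. Trem1, an activating receptor, rose by 0.70, and Padi4, which citrullinates histones, by 0.59. Against these stood the fall of Camp, while Ltf, S100a8 and S100a9, abundant neutrophil proteins chosen after their values were seen, changed by -0.01, -0.10 and -0.10 and were not called. Without Brg1sh_4935 replicate 2, 7 members rose in place of 11, and with arrays centred on their medians 5 fell in place of 3.

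Genes of mast cells, basophils and eosinophils did not share a direction: 3 of 21 rose and 5 fell, with a median of 0.00. Over all genes 9.79% rose and 12.3% fell. Cpa3 rose, as did Gata2, a transcription factor of progenitors and mast cells, by 0.69, and Prg2, an eosinophil granule protein, by 0.91. Hdc fell. The tryptases Tpsab1 and Tpsb2 changed by 0.00 and 0.02, and Fcer1a, a chain of the high-affinity IgE receptor, by -0.02; none of these 3, chosen after their values were seen, was called. The count of falls rests on both knockdown arrays, since 1 remained without replicate 2.

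Markers of other cell types were counted in the same way, beside the 22.1% of all genes that were called. Of 19 dendritic cell genes 4 rose and 0 fell, among them Cadm1, an adhesion molecule, by 1.09, Klrd1, a lectin receptor, by 0.73, Id2, an inhibitor of helix-loop-helix factors, by 0.33, and Cd209a, a C-type lectin, by 0.39. With genes below the median level left out 2 rose, and under a further quantile normalization 2 fell. Of 29 lymphoid genes 1 rose and 3 fell. Il7r, the interleukin receptor of lymphoid progenitors, read 6.12, 6.32 and 6.36 in the controls and 8.41 and 8.35 with the hairpin and rose 4.33-fold. It was too dim to be tested when genes below the median level were left out. Prf1, a pore-forming protein of killer cells, and Cd79b, a chain of the B cell receptor, fell by 0.44 and 0.62.

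Of 13 erythroid and megakaryocyte genes 2 rose, Nfe2, a transcription factor of these lineages, by 0.34 and Vwf, the von Willebrand factor, by 0.32. Klf1, an erythroid transcription factor, and Itga2b, a platelet integrin chain, changed by 0.11 (adjusted p = 0.398) and 0.21 (adjusted p = 0.0611). Of 20 stromal, endothelial and epithelial genes 2 rose, the adhesion molecule Pecam1 by 0.60 and the growth factor receptor Pdgfrb by 0.41. Acta2, smooth muscle actin, fell by 0.33 (adjusted p = 0.0408), a call that was lost when either array of the hairpin, or any of several others, was left out. Kdr, an endothelial receptor, changed by 0.18 and was not called. Of 19 antigen presentation genes 6 rose and 3 fell. H2-Ab1, an MHC class II chain, fell by 1.12, while Cd74, its chaperone, rose by 0.84. Tapbp, which loads MHC class I, rose by 0.40 and its relative Tapbpl fell by 0.32. Without replicate 1 of the hairpin 2 rose in place of 6, and with arrays centred on their medians 5 fell in place of 3.

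Interferon response genes rose as well. Of 46 measured, 29 rose and 2 fell, with a median of 0.36, where 9.79% of all genes rose and 12.3% fell. With genes below the median level left out 19 rose, since the dim members were then not tested. Usp18 (probe set 10541307, Entrez 24110), which removes Isg15 from proteins and dampens the receptor, read 7.73, 7.88 and 8.03 in the controls and 10.45 and 10.56 with Brg1sh_4935. It rose by 2.63 (SE 0.11, adjusted p = 2.15e-06), or 6.17-fold.

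Irf7 and Irf9, transcription factors of the pathway, rose 2.80-fold and 2.66-fold. Irf9 read 9.32, 9.31 and 9.32 in the controls and 10.69 and 10.77 with the hairpin, with no overlap and hardly any spread. Oasl2, of the oligoadenylate synthetase family, rose 1.70-fold. Ifit2 and Cmpk2 were the members that fell, by 0.76 and 0.42. Both receptor chains, Ifnar1 and Ifnar2, rose, by 0.77 and 0.30; these 4 were picked after their values were seen.

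Stat and Irf complexes that carry the interferon signal bind a response element that reads GAAA, any 2 bases, then GAAA. In the 250 bases before the start, on either strand, 10 of 35 interferon genes with a promoter had it (28.6%). The share was 3.40% of array genes and 3.46% of all genes in the promoter table. It was present for 5 of 20 that rose (25.0%) and 5 of 13 that were not called (38.5%). The stretches below show it in capitals for Oas3, an oligoadenylate synthetase that rose by 0.27, for Rsad2, the antiviral enzyme viperin, which rose by 0.60 and carries it on the opposite strand, and for Bst2, the membrane tether tetherin, which changed by 0.04 and was not called. Bst2 has 2 overlapping matches.
Oas3, chr5:120777685-120777774, minus strand: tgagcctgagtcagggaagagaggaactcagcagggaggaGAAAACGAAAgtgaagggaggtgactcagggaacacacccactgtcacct
Rsad2, chr12:26456523-26456612, minus strand: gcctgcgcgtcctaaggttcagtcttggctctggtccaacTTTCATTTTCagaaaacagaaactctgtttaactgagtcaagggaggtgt
Bst2, chr8:71537547-71537642, minus strand: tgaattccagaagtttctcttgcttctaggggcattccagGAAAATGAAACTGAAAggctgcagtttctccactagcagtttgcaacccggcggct

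The match nearest to the start lay 66 bases before it in Oas3, 111 in Rsad2 and 115 in Bst2. Here too genes that rose and a gene that was not called carry the motif.

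Inflammatory genes rose more often than they fell, with 16 of 37 higher, 1 lower and a median of 0.17. Over all genes 9.79% rose and 12.3% fell. Tnf, the cytokine, rose by 0.57 from 11.31, 11.34 and 11.29 to 11.86 and 11.91, and Il1b, interleukin 1 beta, by 0.59. Tnfaip3 and Nfkbie, which restrain NF-kB, rose by 0.68 and 0.98. Ccl4 and Cxcl10, chemokines chosen after their values were seen, rose by 1.60 and 1.36. Among genes of Ras-MAPK feedback and the early response 16 of 30 rose and 3 fell, with a median of 0.23. Dusp5, a phosphatase that acts on ERK, read 9.50, 9.55 and 9.76 in the controls and 11.19 and 11.20 with the hairpin and rose 3.02-fold. Fos and Fosl2, subunits of the AP-1 transcription factor, rose 2.94-fold and 1.65-fold, and Zfp36, which destabilises cytokine transcripts, 2.10-fold. Myc, Spry2 and Dusp2 were the 3 members that fell.

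Myc (probe set 10424400, Entrez 17869), the growth-promoting transcription factor, read 12.47, 12.34 and 12.39 in the controls and 11.86 and 11.86 with Brg1sh_4935. It fell by 0.54 (SE 0.07, adjusted p = 4.52e-04), so that 68.9% of the control signal remained (95% interval 62.2% to 76.4%). Pvt1, the noncoding gene beside Myc, read 7.95, 8.05 and 8.45 against 7.75 and 7.89; its change of -0.33 (adjusted p = 0.131) did not pass, and it passed with arrays centred on their medians (adjusted p = 0.0434) or quantile normalized again (adjusted p = 0.0496). In the Myc network 4 of 14 genes rose and 3 fell, where 9.79% of all genes rose and 12.3% fell. Mxd4, Mnt and Mxd1, which compete with Myc for Max, rose by 0.53, 0.29 and 0.29. Without replicate 1 of the hairpin, 1 member fell in place of 3 and the adjusted p of Mxd1 was 0.0509.

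Genes for making ribosomes fell as a group. Of 48 ribosome biogenesis genes 36 fell and 0 rose, with a median of -0.35, where 12.3% of all genes fell and 9.79% rose. Utp4 and Mphosph10, which process the small subunit RNA, fell by 0.67 and 0.66, Polr1e, a subunit of RNA polymerase I, by 0.63, and Mybbp1a, a nucleolar protein, by 0.52. Utp4 read 12.20, 12.25 and 12.38 in the controls and 11.62 and 11.59 with the hairpin. Without replicate 1 of the hairpin 18 of the 48 fell. Their promoters held CACGTG, which Myc and Max also bind, in 2 of 42 genes (4.76%). The share was 8.11% of array genes and 9.32% of all genes that fell.

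Biosynthesis genes followed the same pattern, where 12.3% of all genes fell and 9.79% rose. Of 31 genes of serine, folate, nucleotide and polyamine synthesis 24 fell and 0 rose, with a median of -0.34. Phgdh, which commits glucose carbon to serine, read 10.65, 10.76 and 10.83 in the controls and 9.60 and 9.57 with the hairpin, a fall of 1.16. Psat1, the next enzyme of that path, fell by 0.52, Mthfd1, of the folate cycle, by 0.68, and Tyms, thymidylate synthase, by 0.51. Of 30 cholesterol and fatty acid synthesis genes 22 fell and 0 rose, with a median of -0.41. Besides Fads2 these were led by Sqle, squalene epoxidase, at -0.88, Elovl6, a fatty acid elongase, at -0.82, and Fasn, fatty acid synthase, at -0.62. Fasn had tight groups, at 11.65, 11.68 and 11.68 against 11.04 and 11.06.

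Cell division genes fell as well, where 12.3% of all genes fell and 9.79% rose. Of 48 DNA replication genes 37 fell and 0 rose, with a median of -0.30. Orc1, of the origin recognition complex, read 9.08, 9.10 and 9.09 in the controls and 8.23 and 8.15 with the hairpin and fell by 0.90. Cdc25a, a phosphatase that activates cyclin-dependent kinases, fell by 0.65, Gins1, of the replicative helicase, by 0.64, and Cdt1, which loads the helicase, by 0.44. Of 39 mitosis genes 30 fell and 0 rose, with a median of -0.29, and 17 fell without replicate 2 of the hairpin. Aurka, a spindle kinase, fell by 0.60, Cdc20, which activates the anaphase-promoting complex, by 0.52, Ttk, a checkpoint kinase, by 0.48, and Anln, a scaffold of cytokinesis, by 0.41.

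Brakes on the cell cycle rose where they changed. Of 31 inhibitors, quiescence genes and p53 targets 14 rose and 0 fell, with a median of 0.16; with arrays centred on their medians 1 fell. Foxo1, a transcription factor of quiescence, read 7.79, 7.96 and 7.83 in the controls and 9.13 and 9.16 with the hairpin and rose 2.44-fold. Trp53inp1 and Sesn1, targets of p53, rose 1.92-fold and 1.90-fold, and Btg1, an antiproliferative gene, 1.70-fold. In the Bcl2 family 7 of 14 rose and 1 fell. The members that rose were of both kinds: Bmf, Bid and Pmaip1, which promote cell death, rose by 0.89, 0.64 and 0.55, and Bcl2l1, which blocks it, rose by 0.50.

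Regulators of leukaemia and progenitor cells did not move as a block. Of 36 measured, 12 rose and 4 fell, with a median of 0.07, where 9.79% of all genes rose and 12.3% fell. Hoxa9, a homeobox gene that MLL-AF9 activates, read 12.08, 12.15 and 12.28 in the controls and 11.86 and 11.86 with the hairpin and fell by 0.31 (adjusted p = 0.00514). Meis1, its partner, changed by 0.17 (adjusted p = 0.153), a value that passed without control replicate 2 (adjusted p = 0.0367). Myb and Kit, the receptor for stem cell factor, changed by -0.08 (adjusted p = 0.243) and -0.07 (adjusted p = 0.413). The large changes were rises. Angpt1, a ligand of the Tie receptor, read 8.95, 8.77 and 8.88 against 11.53 and 11.35 and rose 5.96-fold. Gfi1b, a transcriptional repressor, rose 4.82-fold, Eya1, a transcriptional coactivator and phosphatase, 4.77-fold, and Ikzf2, a transcription factor of the Ikaros family, 1.90-fold.

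Stress genes fell more often than they rose, as did all genes, of which 12.3% fell and 9.79% rose. Of 29 integrated stress response genes 15 fell and 2 rose, with a median of -0.21; Cth, which makes cysteine, fell by 1.53 and Stc2, a secreted glycoprotein, by 0.89. Phgdh, Psat1, Psph, Shmt2, Mthfd2 and Asns are on both this list and that of serine, folate, nucleotide and polyamine synthesis. The counts of these lists therefore overlap. The unfolded protein response list had 8 falls and 1 rise among 22 genes, and 1 fell without replicate 2 of the hairpin. Derl3, a membrane protein of protein disposal, rose by 0.42, while Pdia6, a disulphide isomerase, Hyou1, a chaperone, and Sdf2l1, its partner in the endoplasmic reticulum, fell by 0.29, 0.23 and 0.20. Under the trended robust test 3 members rose. Of 11 heat shock genes 6 fell and 0 rose, and 2 fell without replicate 2. Hsp90aa1, Hspd1, Hspe1 and Dnajb1, chaperones of the cytosol and mitochondria, fell by 0.32, 0.50, 0.46 and 0.22. The calls of Hspd1 and Dnajb1 were lost without replicate 2 (adjusted p = 0.0807 and 0.0502).

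Of 12 iron genes 5 fell and 2 rose, to be read beside the 22.1% of all genes that were called. Slc40a1, the iron exporter, read 11.28, 11.22 and 11.12 in the controls and 9.79 and 9.88 with the hairpin, and Tfrc, the transferrin receptor, read 11.56, 11.54 and 11.68 against 10.47 and 10.27. They fell by 1.38 and 1.22. Steap3, a ferrireductase, fell by 0.45, and Hmox1, which frees iron from haem, rose by 0.54. Without replicate 1 of the hairpin 3 fell, and the rises numbered 1 when each array was centred and 3 after quantile normalization was repeated. Glycolysis and hypoxia genes were mixed, with 4 of 28 higher and 6 lower, where 9.79% of all genes rose and 12.3% fell. The falls on this list numbered 10 with arrays centred on their medians and 3 when every row was tested. Slc16a1, a lactate transporter, fell by 1.17 and Egln3, an oxygen-sensing hydroxylase, by 0.43, while Hk3, a hexokinase, and Aldoc, an aldolase, rose by 0.44 and 0.46.

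**Figure D4:**
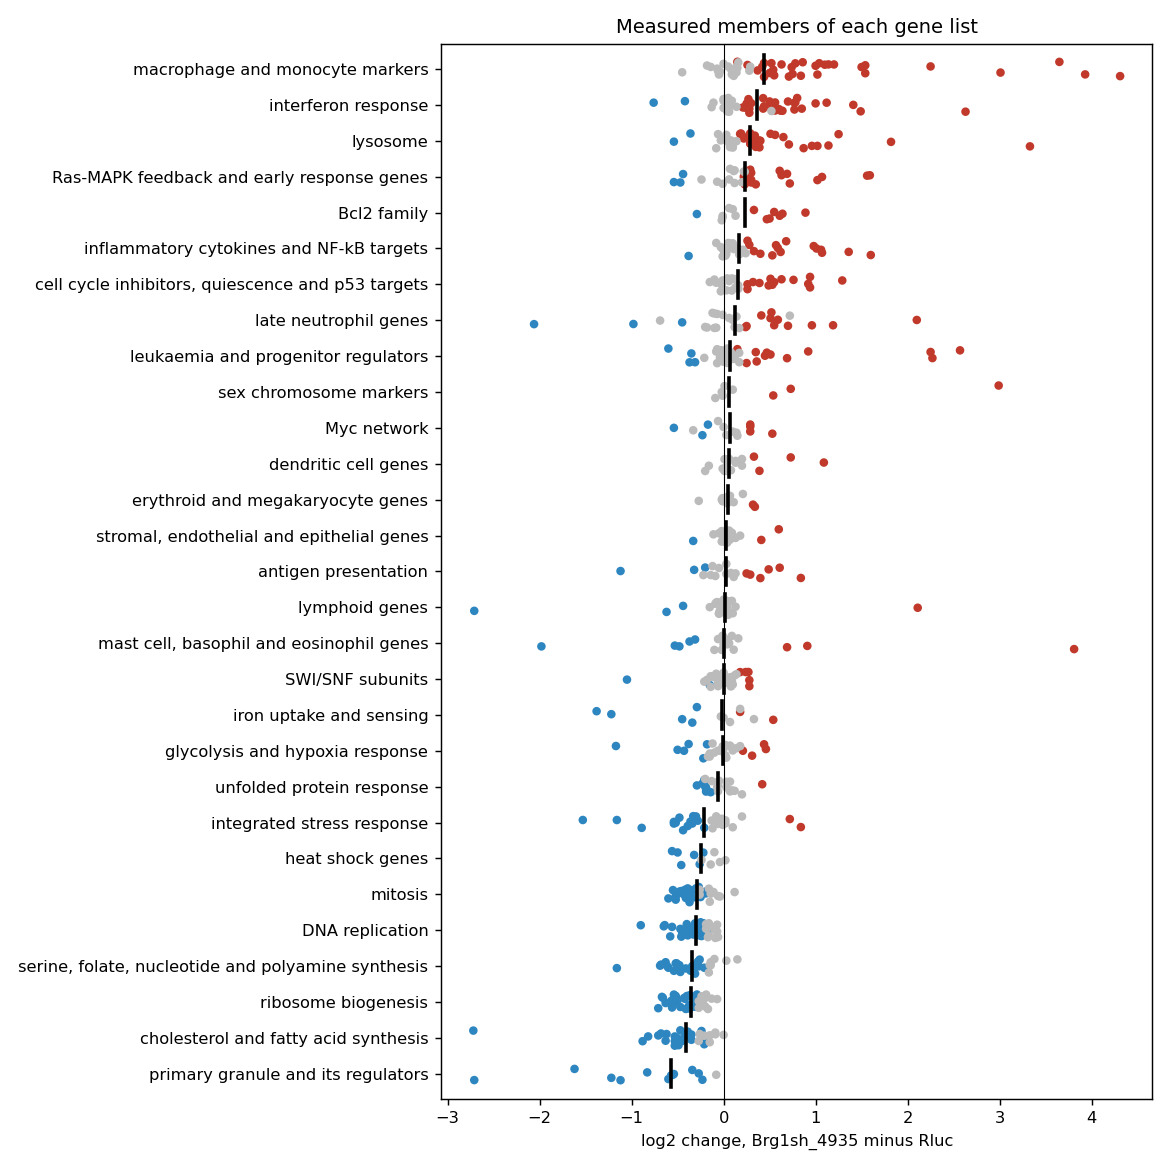
Log2 change between Brg1sh_4935 and Rluc (x axis) of every measured member of 29 gene lists (rows, sorted by median); red points rose, blue points fell, grey points were not called and black bars are medians. The medians run from -0.57 for the primary granule to 0.44 for macrophage and monocyte markers.

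A Y-linked gene was among the largest rises. Eif2s3y, a subunit of a translation initiation factor, read 4.78, 4.88 and 5.08 in the controls and 7.90 and 7.90 with Brg1sh_4935, a rise of 2.99 (SE 0.11, adjusted p = 1.18e-06). Kdm5d, a histone demethylase, and Uty, a relative of such enzymes, rose by 0.73 and 0.54. Uty did not pass without replicate 1 of the hairpin (adjusted p = 0.0723). Usp9y, Zfy1, Zfy2 and Sry, also on the Y chromosome, changed by -0.01, -0.09, 0.10 and 0.01 and were not called. Xist, the transcript that silences an X chromosome, lay between 5.16 and 5.24 in all 5 arrays. Under the other hairpins Eif2s3y stood 1.30 (Brg1sh_3232) and 4.37 (Brg1sh_3364) above the same controls. What moves with this gene was not tested.

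Set directly against the mean of the other Brg1 hairpins, a contrast without any control array, Brg1sh_4935 differed in 572 of 19937 genes, or 2.87%. Of these 308 were higher (1.54%) and 264 lower (1.32%), and 27 were higher and 3 lower by at least 2-fold. The count depends on both arrays of the hairpin: it was 11 without Brg1sh_4935 replicate 2 and 22 without replicate 1. Leaving out an array of another hairpin left 131 to 278, and leaving out control replicate 3, which changes only the shared spread, gave 904. Of the 572, 454 were also called against Rluc, which is 79.4% of them and 10.3% of the 4402 genes of that comparison. Over all genes 22.1% were called against Rluc. Both contrasts use the same Brg1sh_4935 arrays, so part of this overlap is built in. Both Brg1sh_4935 arrays lay beyond all 4 other knockdown arrays in 18.5% of all genes.

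The 10 genes named for standing furthest above the other hairpins had all risen against the control. That comparison uses the same Brg1sh_4935 arrays, so these rises are not separate support. Dock4, an activator of small GTPases, read 8.34 and 8.66 with Brg1sh_4935, 6.97 and 6.99 with Brg1sh_3232, 6.87 and 6.67 with Brg1sh_3364, and 6.53, 6.59 and 6.54 with Rluc. It stood 1.62 above the mean of the other hairpins (adjusted p = 1.99e-04), and its call held under each alternative in which it was tested, which leaves out the filter at the median level. Cdh17, a cadherin, read 8.50 and 8.61 against 6.82 to 7.26 with the other hairpins and 7.01 to 7.39 in the controls, so it was high with Brg1sh_4935 alone. Gem, Havcr2 and Dab2 stood 1.68, 1.57 and 1.43 above the mean of the other hairpins, and C3ar1 and Ifi207 1.34 and 1.27. In the single contrasts each of these genes was called against Brg1sh_3364 and none against Brg1sh_3232. From Brg1sh_3232 they differed, in that order, by 1.28, 1.26, 1.23, 1.13 and 0.66. Il7r, Mrgpra6, a sensory receptor of the Mas-related family, and Slc24a3, a sodium-calcium exchanger, stood 1.41, 1.39 and 1.35 above that mean. They were called against each of the other hairpins.

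Among the lists, 20 of 51 macrophage markers and 13 of 46 interferon genes were called higher than with the other hairpins, against 1.54% of all genes. The median changes against the same 3 controls were 0.44 for macrophage markers with Brg1sh_4935, 0.22 with Brg1sh_3232 and 0.15 with Brg1sh_3364. For interferon genes they were 0.36, 0.21 and 0.16. For ribosome biogenesis they were -0.35, -0.32 and -0.52, and 0 of the 48 genes differed between Brg1sh_4935 and the other hairpins. Myc changed by -0.54 with Brg1sh_4935, by -0.26 with Brg1sh_3232 and by -1.01 with Brg1sh_3364, and the contrast with the mean of the other hairpins was 0.10 (adjusted p = 0.509, 95% interval -0.04 to 0.24). These comparisons share their controls.

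Genes below the other hairpins were of different kinds. Prg2 read 8.52 and 8.52 with Brg1sh_4935, close to Brg1sh_3232 (0.91 and 0.95 above Rluc), while it stood 3.34 above Rluc with Brg1sh_3364, and its difference from their mean was -1.23. Tshr, Camp and Atp1b1 stood below Rluc by the means of all 3 hairpins, lowest with Brg1sh_4935, and differed by -1.2, -1.04 and -0.86. For Camp the change of -0.29 with Brg1sh_3364 against Rluc was not called. Nor was its difference of -0.30 between Brg1sh_4935 and Brg1sh_3232. For Atp1b1 the difference of -0.63 from Brg1sh_3232 was not called either. Mbtps1, the protease that activates the SREBP factors of lipid synthesis, read 10.94 and 10.84 with Brg1sh_4935, 11.73 and 11.70 with Brg1sh_3232, 11.44 and 11.45 with Brg1sh_3364, and 11.39, 11.40 and 11.32 with Rluc. It was lower with Brg1sh_4935 than in any other array, by 0.69 against the other hairpins (adjusted p = 5.72e-04) and by 0.48 against Rluc (adjusted p = 1.71e-04). Marveld1, a membrane protein, and Stag3, a cohesin subunit of meiosis, were also lowest in the Brg1sh_4935 arrays, at 9.69 and 9.65 for Marveld1 and 7.89 and 7.96 for Stag3. Ffar2, a receptor for short fatty acids, Mogat2, an acyltransferase, and Spaca9 stood 0.64, 0.53 and 0.72 above Rluc with Brg1sh_3364 and below it with Brg1sh_4935, at -0.75, -0.55 and -0.33. The calls of Stag3, Ffar2, Mogat2 and Spaca9 against Rluc were lost when an array of the hairpin was left out. Of 18 alternatives, Stag3 lost its call in 1, Ffar2 and Mogat2 in 3 each and Spaca9 in 6.

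**Figure D5:**
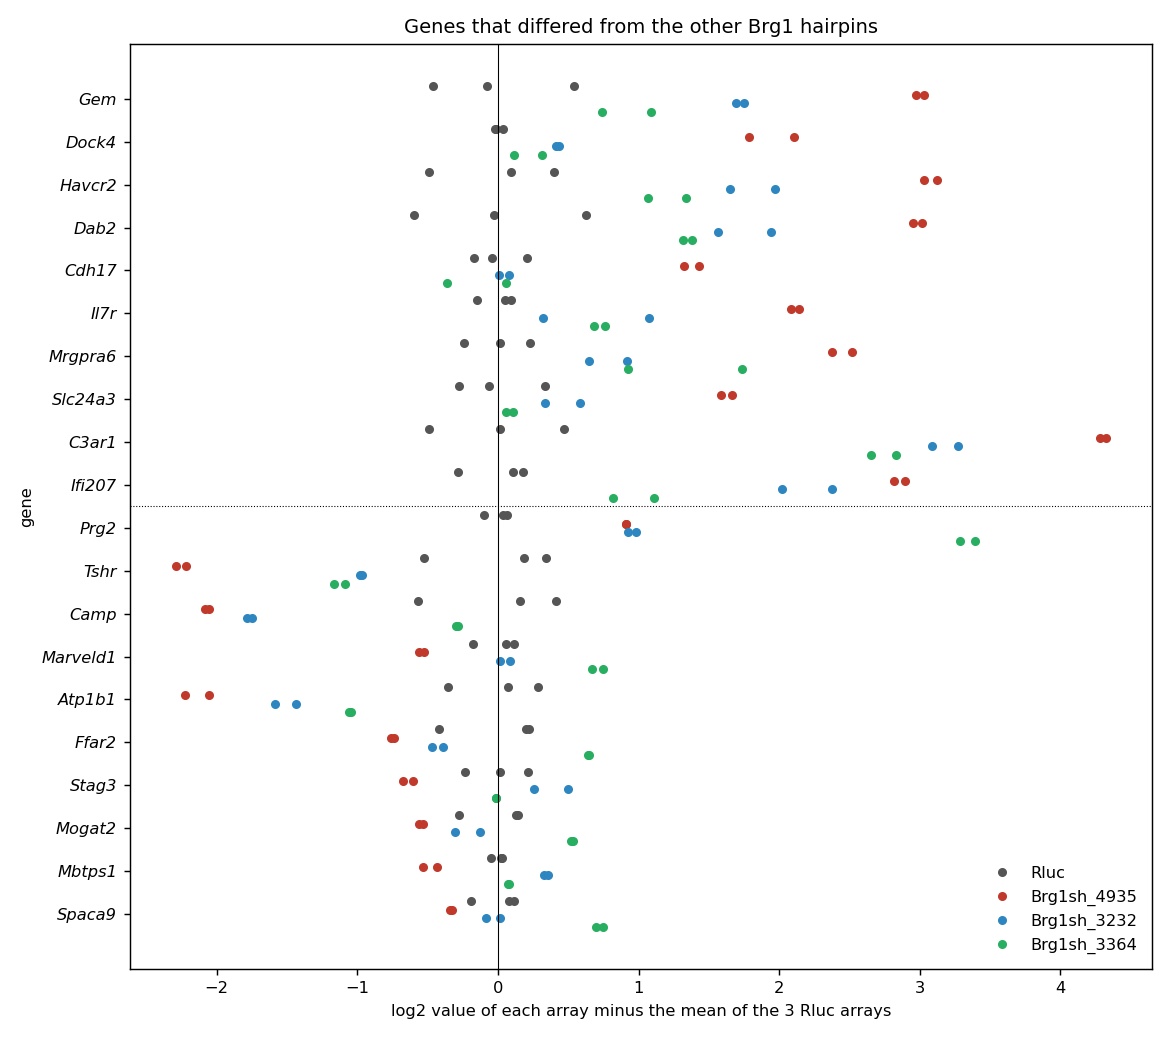
For 20 genes (rows) the x axis gives the log2 value of each array minus the mean of the 3 Rluc arrays, with grey points for Rluc, red for Brg1sh_4935, blue for Brg1sh_3232 and green for Brg1sh_3364. The 10 genes above the dotted line were higher with Brg1sh_4935 than the mean of the other hairpins, by 1.27 to 1.68. The 10 below it differed from that mean by -0.68 to -1.23.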

How the data were processed

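Biotin-labelled material made from the RNA was hybridised to whole-transcript Affymetrix arrays, per the labels' protocols. The authors deposited log2 expression values per probe set, made with RMA (background subtraction, quantile normalization and summary of probes) per the submitters' processing notes; for the version and the array's build the entry is: not given in the sources used here. Raw scans were not analysed here. Of 34760 probe sets, 21640 had 1 gene symbol in the platform annotation, 1321 had several and 11799 none. For the 954 genes with more than 1 probe set, the brightest by mean stood for the gene, which left 19937 genes without a filter on dim ones.

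Group means of all 9 arrays were fitted with limma 3.58.1 in R 4.3.3 (5 residual and 3.85 prior degrees of freedom), and the fit was tested on simulated data. Tests were two-sided, and a call needed a p below 0.05 after Benjamini-Hochberg adjustment; "rose" and "fell" mean called against Rluc. SE is that of the fit. Levels are not compared between genes. The labels do not say that replicates were grown separately, so the p-values cover the spread between these arrays alone, possibly technical spread. Members, the 29 gene lists (805 of 872 entries measured), tests and naming rule were chosen with earlier results of these data known. The rule named 11 fixed genes, the 15 largest rises and falls, up to 4 members a list with the smallest p, the 10 largest differences each way from the other hairpins, and sex chromosome markers. It left out predicted models, clone names, small RNAs, and olfactory, vomeronasal and antigen receptors from the ranked parts. Promoter sequences are from RefSeq, build GRCm38.p6.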

Additional observations from a re-analysis of the deposited data

Results flagged for a closer look

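Of 159 named genes, 57 differed between Brg1sh_4935 and the mean of the other Brg1 hairpins in limma's test (adjusted p below 0.05), 36 higher and 21 lower. Values in brackets are the log2 difference, Brg1sh_4935 minus the mean of the other hairpins. Such a difference need not hold against each of them. The adjusted p ran from 1.09e-04 for Prg2 to 0.0428 for Csf1r. Of the 57, 5 kept the call under each alternative in which they were tested (Dock4, Padi2, Prg2, Mbtps1 and Oasl2), and the others lost it under at least 1. Dock4 and Oasl2 were not tested when genes below the median level were left out.

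Among myeloid surface and macrophage genes the higher ones were C3ar1 (1.34), Cd200r3 (1.16), Cd200r4 (0.78), Itgax (0.93), Havcr2 (1.57), Colec12 (1.09), Cx3cr1 (0.49), Mpeg1 (0.34), Cd14 (0.40) and Csf1r (0.21). Mpeg1, Cd14 and Csf1r stood 0.67, 0.61 and 0.40 above Brg1sh_3364. Against Brg1sh_3232 they differed by 0.01, 0.19 and 0.01, and no gene of this myeloid group was called there. Higher intracellular and lysosomal genes were Gem (1.68), Dab2 (1.43), Lgmn (0.84), Padi2 (1.12), Mitf (0.43) and Dock4 (1.62). Interferon genes above the other hairpins were Usp18 (1.09), Ifi207 (1.27), Oasl2 (0.59), Irf7 (0.44) and Irf9 (0.36). Higher regulators and receptors were Gfi1b (1.16), Angpt1 (0.57), Gata2 (0.43), Il7r (1.41), Cadm1 (0.75), Klrd1 (0.42), Cdh17 (1.43), Mrgpra6 (1.39) and Slc24a3 (1.35). Stress and feedback genes above the other hairpins were Sesn1 (0.42), Pmaip1 (0.33), Derl3 (0.33) and Dusp5 (0.42). Among all these higher genes, only Dock4, Padi2, Usp18, Oasl2, Irf9, Il7r, Cadm1, Pmaip1, Cdh17, Mrgpra6 and Slc24a3 were called above each other hairpin singly. Serpinb10 (0.78) changed against Rluc by -1.62 with Brg1sh_4935, -2.18 with Brg1sh_3232 and -2.60 with Brg1sh_3364. Car4 (0.79) changed against Rluc by -2.51 with Brg1sh_4935, -4.51 with Brg1sh_3232 and -2.08 with Brg1sh_3364.

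Among the genes lower than with the other hairpins, those of granules and myeloid cells were Prg2 (-1.23), Camp (-1.04), Mpo (-0.37), Prtn3 (-0.41), Padi4 (-0.62), Hdc (-0.41) and Ffar2 (-0.86). Mpo differed by -0.69 from Brg1sh_3232 but by -0.05 from Brg1sh_3364, where it was not called. Lower membrane proteins and transporters were Tshr (-1.20), Atp1b1 (-0.86), Marveld1 (-0.92), Gypc (-0.26) and Slc40a1 (-0.29). Slc40a1 differed by -0.67 from Brg1sh_3364 but by 0.09 from Brg1sh_3232, where it was not called. The remaining ones were Stag3 (-0.82), Mogat2 (-0.71), Mbtps1 (-0.69), Spaca9 (-0.68), Gramd3 (-0.36), Tyms (-0.21), Cdt1 (-0.21), Bcl7c (-0.21) and Tapbpl (-0.24). Among all these lower genes, only Hdc, Tshr, Marveld1, Stag3 and Mbtps1 were called below each other hairpin singly. Padi4 stood above Rluc under each hairpin, by 0.59 with Brg1sh_4935, 0.63 with Brg1sh_3232 and 1.79 with Brg1sh_3364.

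Probe sets with no gene symbol or with several were not used above. Of 13120 such sets, 873 were called in Brg1sh_4935 against Rluc (539 rose and 334 fell), which is 6.65%, against 16.4% of probe sets with 1 symbol.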

How the results depend on the processing

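Against Rluc, the count of 4402 called genes stayed within 1.5 times of itself, at 3589 to 4953, under other normalizations, summaries and eBayes settings, with array weights and in a fit of the 5 arrays alone. It was 1053 in a test against a fold of 1.2 and 2813 at an adjusted p below 0.01. Leaving out each array in turn gave 2673 to 4292, lowest without Brg1sh_4935 replicate 1. Against the other hairpins, the count of 572 was 112 with every row tested, 1093 with array weights, 32 in a test against a fold of 1.2 and 116 at an adjusted p below 0.01. Leaving out each array gave 11 (without Brg1sh_4935 replicate 2) to 904 (without Rluc replicate 3). A lone array of a group is assumed there to vary like the other groups. Smarca4 kept its call in every fit, at -1.11 to -1.02. Of 146 named genes called against Rluc, 132 kept the call under each alternative in which they were tested (dim genes were not tested with genes below the median level left out) and 0 changed direction.

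Deviations of Brg1sh_4935 and Rluc arrays of the same number correlated at 0.028 and 0.015, those of Brg1sh_3232 and Rluc at 0.19 and 0.249, and those of the other group pairs at -0.072 to 0.005. Not every pair was over 0.1, so the numbers were not taken to pair the arrays. In a fit that took this number as a block, 4002 genes were called against Rluc and 807 against the other hairpins, and the Smarca4 change was -1.05.

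With 2 arrays of the hairpin, 1 cell line and 1 time, the values describe these arrays. Background, scan and slide effects were not analysed here, and list counts given above with a second value depend on the array or setting named there. Centring the arrays shifted the median of all genes by -0.06.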

Other observations

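A stricter view of what set Brg1sh_4935 apart asked which genes were called against Brg1sh_3232 and Brg1sh_3364 singly, in the same direction. There were 90, of which 64 were higher and 26 lower, and 86 were also called against Rluc. All these contrasts share the Brg1sh_4935 arrays, so part of that overlap is built in. The genes below were picked from these 90 after their values were seen, and leaving out an array of the hairpin left few of the calls against the mean of the other hairpins, as given above. Hpgds, which makes prostaglandin D in mast cells and macrophages, stood 1.30 above Brg1sh_3232 and 1.05 above Brg1sh_3364, and 1.74 above Rluc. Cyp11a1, the enzyme that opens steroid synthesis and is also found in mast cells, stood 1.11 and 1.34 above the other hairpins and 1.58 above Rluc. C1qb and C1qc, chains of complement C1q made by macrophages, stood 1.02 and 0.63 above Rluc, and under the other hairpins their changes against Rluc were between -0.15 and 0.28. Lpl, lipoprotein lipase, rose by 0.74 with Brg1sh_4935 and changed by -0.54 with Brg1sh_3232 and -0.17 with Brg1sh_3364. Pparg, a nuclear receptor of lipid handling, rose by 0.78, against 0.21 and 0.15.

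Jun, a subunit of AP-1, rose by 0.69 with Brg1sh_4935 and changed by 0.01 and 0.10 with the other hairpins, whereas Fos stood 1.56, 1.51 and 1.44 above Rluc with the 3 hairpins. Ccl2, a chemokine for monocytes, rose by 1.06, against 0.28 and 0.09. Among the lower genes, Slc25a1, the mitochondrial citrate carrier, fell by 0.41 with Brg1sh_4935 and changed by 0.07 and 0.01 with the others. Dsp, the desmosomal protein desmoplakin, fell by 0.27 with Brg1sh_4935 and rose by 0.28 and 0.22 with the others. Med21, a Mediator subunit, changed by -0.18 with Brg1sh_4935 (adjusted p = 0.232), against rises of 0.36 and 0.30.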
